A study of Mus musculus with 4 samples.

Results

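Macrophages enter the injured colon in large numbers, and 10 genes commonly used to mark them (*Adgre1*, *Csf1r*, *Cd68*, *Lyz2*, *C1qa*, *C1qb*, *C1qc*, *Itgam*, *Fcgr3* and *Mrc1*) were followed here in RNA sequencing of colonic epithelial cells from mice with chemically induced colitis. They were picked by gene symbol, and all 10 were found among the 16015 genes listed. The libraries came from 2 control mice, labelled WT and described in the methods as *Bmal1* fl/fl animals, and from 2 *Bmal1* cKO mice, which carry *Villin-CreERT2* on the same *Bmal1* fl/fl background. *Bmal1* encodes a core activator of the circadian clock. The *Villin* promoter drives the recombinase in intestinal epithelial cells and tamoxifen, injected on 5 consecutive days, switches it on, so macrophages of the *Bmal1* cKO mice are not the cells in which the gene is deleted. Whether the control mice received tamoxifen is not given in the sources used here, and neither is the sex of these animals. All mice were on a C57BL/6 background and 2 to 4 months old. They drank 3% dextran sulfate sodium (DSS), which injures the colonic lining, for 5 days and plain water for the next 2, and the cells were collected on day 7.

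Macrophages of the gut wall are renewed from blood monocytes that settle beneath the epithelium. They depend on growth factor signals through the receptor CSF1R, engulf microbes and dying cells with the help of complement C1q and Fc receptors, and digest them in lysosomes rich in CD68 and lysozyme. During DSS colitis, monocytes and neutrophils are recruited together. Several genes of the list are shared between these cells, since *Itgam*, *Lyz2* and *Fcgr3* are also expressed by neutrophils, and *Mrc1* is also found in lymphatic endothelium.

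The libraries held 10312791 to 14156639 reads on listed genes. Values below are normalized counts, the reads on a gene divided by a size factor of its library. The epithelial label was borne out by the levels of epithelial markers, with at least 17455 normalized counts of *Epcam* in every library, yet markers of leukocytes, blood vessels and connective tissue were also detected. The targeted gene, listed as *Arntl*, stood at 358 and 342 normalized counts in controls and at 341 and 289 in cKO mice (log2 fold change -0.16 ± 0.14, the error being the standard error of the fit here and below, adjusted p = 0.389 by limma), so the directions given are those of the libraries as labelled.

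Of the 10 macrophage marker genes, 9 fell in the libraries labelled *Bmal1* cKO and none rose at an adjusted p under 0.05 (limma on log2(normalized count + 1), two-sided, Benjamini-Hochberg adjustment over 13983 genes). Among all genes tested, 27.7% were lower and 29% were higher by the same rule. The log2 fold changes of the 10 genes lay between -5.61 and -0.99 with a median of -3.38, against a median of -0.04 over all genes tested. For the same 9 genes, both *Bmal1* cKO libraries lay below both control libraries, which held for 41.7% of the genes tested. The exception in each count was *Mrc1*. Without *Bmal1* cKO mouse 1 the number that fell was 4, and without *Bmal1* cKO mouse 2 it was 6, *Adgre1*, *Lyz2* and the C1q chains missing the threshold in the first case and the C1q chains in the second. *Csf1r*, *Cd68*, *Itgam* and *Fcgr3* passed the test with any mouse left out. Summed over the 10 genes, control libraries held 7913 and 3477 normalized counts and cKO libraries 550.3 and 731, so that the group means stood 8.89-fold apart. This fold was 5.43 without control mouse 1 and 12.3 without control mouse 2. In bulk libraries of this kind, fewer macrophages and less RNA of these genes per macrophage cannot be told apart. Nor can fewer macrophages in the colon be told from fewer carried along when the epithelial cells were isolated. With 2 mice a group, an exact permutation test of a single gene cannot give a two-sided p below 0.333, and the test across all genes borrows its estimate of the spread from the whole table.

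**Figure D1:**
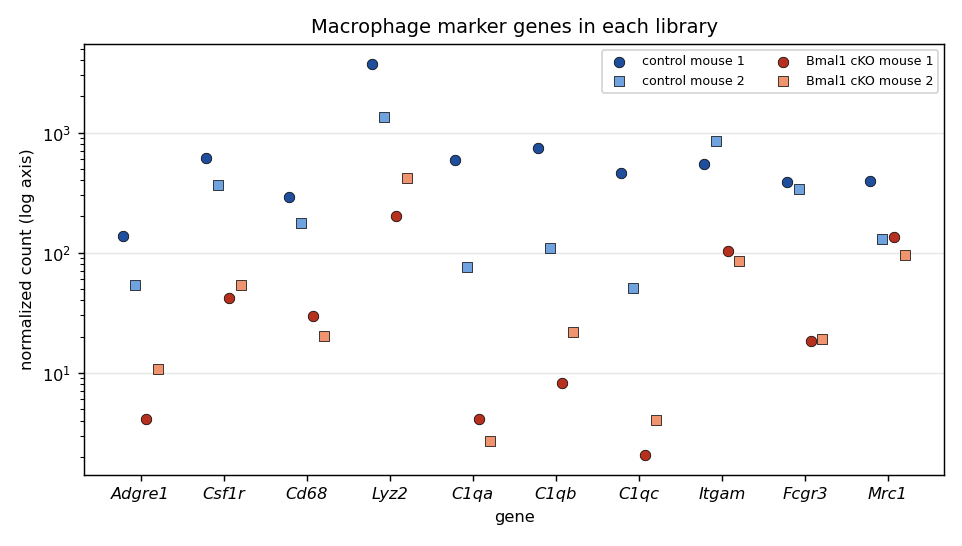
Normalized count (log axis) of each of the 10 macrophage marker genes in the 2 control libraries (blue) and the 2 *Bmal1* cKO libraries (red), 1 point a mouse. In 9 genes both red points lie below both blue points, and in *Mrc1* the point of *Bmal1* cKO mouse 1 (136) lies above that of control mouse 2 (129).

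*Csf1r* encodes the receptor for the macrophage growth factors CSF1 and IL-34 (chromosome 18 of GRCm38, 61100598 to 61132149). Controls stood at 613 and 363 normalized counts and cKO mice at 42.2 and 54.1. The groups were far apart (log2 fold change -3.28 ± 0.31, adjusted p = 8.96e-04). In the annotation, 873 bases of its exons overlap those of *Hmgxb3* on the opposite strand, and whether the counting used strand is not given in the sources used here. *Hmgxb3* itself went from 541 and 523 to 368 and 393 normalized counts (log2 fold change -0.48, adjusted p = 0.0167). Both ligands fell with the receptor. *Csf1* went from 122 and 70.3 normalized counts to 29.8 and 12.2 (log2 fold change -2.21, adjusted p = 0.0194). *Il34* went from 196 and 124 to 48.3 and 70.3 (log2 fold change -1.40, adjusted p = 0.0178). With values corrected for GC content, as described below, neither ligand passed the test (adjusted p = 0.0737 for *Csf1* and 0.550 for *Il34*).

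*Adgre1* encodes F4/80, the surface protein by which mouse macrophages are most often stained (chromosome 17, 57358691 to 57483527). Controls stood at 139 and 53.4 normalized counts and cKO mice at 4.11 and 10.8, which correspond to 164 and 63 reads against 4 and 8. The groups did not overlap (log2 fold change -3.49 ± 0.69, adjusted p = 0.00924), but the call was lost without control mouse 1 (adjusted p = 0.0587) and without *Bmal1* cKO mouse 1 (0.0654). With a mouse left out, its log2 fold change lay between -4.17 and -2.81. Scaled by the size factors, the pooled reads stood 13.7-fold apart, with an exact 95% interval of 7.69 to 26.9 that covers counting error alone. Per kilobase of exon it was the lowest of the 10 genes in the control mice, at 29.6 normalized counts.

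*Cd68* encodes a glycoprotein of the lysosomes of phagocytes (chromosome 11, 69664213 to 69666153). Controls stood at 293 and 178 normalized counts and cKO mice at 29.8 and 20.3, with no overlap (log2 fold change -3.16 ± 0.37, adjusted p = 0.00158). Its ratio to *Csf1r* was 0.478 and 0.491 in controls, and 0.707 and 0.375 in cKO mice. Of 14 lysosomal genes that most cells use, 5 were lower and 5 higher, near the 27.7% and 29% of all genes, with a median log2 fold change of -0.04. *Lamp1*, a lysosomal membrane protein, was higher (0.32, adjusted p = 0.0327), while *Psap* (-0.12, adjusted p = 0.508) and the protease *Ctsb* (0.11, adjusted p = 0.581) did not pass the test. With values corrected for GC content, 7 of the 14 were higher and 0 were lower, beside 29.4% and 12.1% of all genes in that fit.

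*Lyz2* encodes the lysozyme of macrophages and neutrophils (chromosome 10, 117277331 to 117282321). It was the most abundant member in every library, with 3749 and 1335 normalized counts in controls and 203 and 419 in cKO mice (log2 fold change -2.94 ± 0.56, adjusted p = 0.00804). Without *Bmal1* cKO mouse 1 it missed the threshold (adjusted p = 0.0804), and its log2 fold change was -2.19 without control mouse 1 and -3.68 without control mouse 2. The mice of a group differed 2.81-fold among the controls and 2.07-fold among the *Bmal1* cKO animals, without overlap between groups. *Lyz1*, the lysozyme of Paneth cells, is a neighbouring copy, and 15.4% of the 50-base stretches of the *Lyz2* transcript also occur in it, so the counting could have moved reads between them. *Lyz1* stood at 96.3 and 18.6 normalized counts in controls and 8.23 and 18.9 in cKO mice. There were 22.1 to 71.6 normalized counts of *Lyz2* for each of *Lyz1*, and *Lyz1* did not pass the test (adjusted p = 0.156).

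*C1qa*, *C1qb* and *C1qc* encode the chains of C1q, the recognition molecule of the classical complement pathway, which is made by tissue macrophages. The genes lie in a row on the minus strand of chromosome 4 of GRCm38 (136880129 to 136886187 for *C1qb*, 136889804 to 136893065 for *C1qc* and 136895917 to 136898803 for *C1qa*). They gave the largest differences of the list on the deposited size factors. After correcting for GC content *C1qb* (-3.03) came behind *Fcgr3* (-3.90) and *Adgre1* (-3.58), and without control mouse 1 both *C1qb* (-2.92) and *C1qc* (-3.72) came behind *Fcgr3* (-4.11). Without *Bmal1* cKO mouse 1, *C1qb* (-3.66) again came behind *Fcgr3* (-4.18). *C1qa* stood at 594 and 75.4 normalized counts in controls and 4.11 and 2.70 in cKO mice. *C1qb* had 748 and 108 against 8.23 and 21.6. *C1qc* had 456 and 50.8 against 2.06 and 4.06. All 3 chains were thus high in control mouse 1, several fold lower in control mouse 2 and lower still in both *Bmal1* cKO mice, where 2 to 4 reads of *C1qa* and *C1qc* and 8 to 16 of *C1qb* were left in a library. The log2 fold changes were -5.61 ± 0.99 for *C1qa* (adjusted p = 0.00614), -4.31 ± 0.97 for *C1qb* (adjusted p = 0.0140) and -5.29 ± 1.07 for *C1qc* (adjusted p = 0.00978). Each chain missed the threshold without *Bmal1* cKO mouse 1 (adjusted p = 0.0584 to 0.119) or mouse 2 (0.0686 to 0.0710), and *C1qb* also without control mouse 1 (0.0561). Without control mouse 1 and without control mouse 2, the log2 fold changes were -4.13 and -7.09 for *C1qa*, -2.92 and -5.70 for *C1qb*, and -3.72 and -6.86 for *C1qc*. The *Bmal1* cKO libraries together held 6 reads of *C1qa* and 5 of *C1qc*. Scaled by the size factors, the pooled reads of *C1qa* stood 95.6-fold apart, with an exact 95% interval of 43.7 to 261. Those of *C1qc*, scaled likewise, stood 86.9-fold apart (37.0 to 269). These intervals cover counting error alone and leave out the difference between the control mice.

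Within the control mice the chains kept their proportions. *C1qb* stood at 1.26 and 1.44 times *C1qa*, and *C1qc* at 0.768 and 0.674 times, although the levels differed 7.88-fold between the mice for *C1qa*. With so few reads left in the *Bmal1* cKO libraries, the same ratios cannot be compared there. Of 8 other complement genes tested, among them the proteases that C1q activates, 4 fell and 4 did not pass the test, beside the 27.7% of all genes that fell. *C3*, the central component, fell from 1772 and 1257 to 422 and 533 normalized counts (log2 fold change -1.65, adjusted p = 0.00190), and *Serping1*, the inhibitor of the first complement complex, from 903 and 123 to 36.0 and 17.6 (-3.67, adjusted p = 0.0221). *C4b* had 817 and 61.0 in the control mice against 47.3 and 40.6 (adjusted p = 0.136).

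The promoters of *C1qb* and *C1qc* are shown because these neighbouring genes moved together. Each runs from 250 bases before to 50 after the start site given by RefSeq on GRCm38.p6 and is written 5′ to 3′ along the gene. Capitals mark GAGGAA on either strand (TTCCTC on the other), a purine-rich word found in many binding sites of PU.1, the ETS factor of the myeloid lineage. The word begins 30 bases before the start site in *C1qb* and 193 before it in *C1qc*.
C1qb (chr4:136886151-136886450, minus strand): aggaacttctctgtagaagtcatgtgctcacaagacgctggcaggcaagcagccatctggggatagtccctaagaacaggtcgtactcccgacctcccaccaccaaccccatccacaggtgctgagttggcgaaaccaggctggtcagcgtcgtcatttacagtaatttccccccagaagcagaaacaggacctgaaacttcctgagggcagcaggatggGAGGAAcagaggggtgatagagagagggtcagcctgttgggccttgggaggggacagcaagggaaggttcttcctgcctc
C1qc (chr4:136892865-136893164, minus strand): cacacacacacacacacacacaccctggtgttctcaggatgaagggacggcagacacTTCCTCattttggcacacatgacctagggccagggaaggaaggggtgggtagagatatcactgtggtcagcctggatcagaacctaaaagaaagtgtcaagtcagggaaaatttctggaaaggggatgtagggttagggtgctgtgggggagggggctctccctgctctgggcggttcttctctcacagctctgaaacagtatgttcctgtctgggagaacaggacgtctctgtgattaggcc

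*Itgam* encodes CD11b, the alpha subunit of an integrin that binds complement fragments and is carried by monocytes, macrophages and neutrophils (chromosome 7, 128062640 to 128118491). It was the only member with more counts in control mouse 2, at 542 and 845 normalized counts in controls and 103 and 85.2 in cKO mice. Its log2 fold change was -2.84 ± 0.25 (adjusted p = 7.85e-04). On the deposited size factors this was the smallest among the 9 that passed the test. After correcting for GC content, *Cd68* (-2.43), *Csf1r* (-2.46) and *Lyz2* (-2.70) changed less than *Itgam* (-2.75). Without control mouse 1 it stood at -3.16, and *Lyz2* (-2.19), *Cd68* (-2.80), *Adgre1* (-2.81), *Csf1r* (-2.90) and *C1qb* (-2.92) changed less. Without *Bmal1* cKO mouse 1 so did *Lyz2* (-2.41) and *Adgre1* (-2.88), beside -2.98 for *Itgam*. *Itgb2*, its beta subunit, had 412 and 584 against 49.4 and 44.6 (log2 fold change -3.36, adjusted p = 5.42e-04). The ratio of the alpha to the beta subunit stayed between 1.32 and 2.08 in the 4 libraries. In the annotation 72.4% of the 50-base stretches of the *Itgam* transcript are shared with the overlapping model *Gm49368* on the same strand, which was not among the listed genes.

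*Fcgr3* encodes the activating receptor FcγRIII for immunoglobulin G (chromosome 1, 171051174 to 171064935). It was the most even member within groups, at 384 and 339.7 normalized counts in controls and 18.5 and 18.9 in cKO mice. Its log2 fold change of -4.20 ± 0.24 had the smallest adjusted p of the list (5.33e-04). Its signalling partner *Fcer1g*, the common Fc receptor gamma chain, had 438 and 321 against 11.3 and 23.0 (log2 fold change -4.45, adjusted p = 8.16e-04). The other Fcγ receptors fell as well. The high-affinity receptor *Fcgr1* had 72.7 and 39.8 against 6.17 and 2.70 (-3.41, adjusted p = 0.00789). The inhibitory receptor *Fcgr2b* had 625 and 351 against 24.7 and 41.9 (-3.82, adjusted p = 0.00111), and *Fcgr4* had 116 and 60.1 against 11.3 and 2.70 (-3.65, adjusted p = 0.00995). *Fcgr3* and *Fcgr2b* share sequence (12.8% of the 50-base stretches of *Fcgr3*), so their reads could have been exchanged in part.

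*Mrc1* encodes the mannose receptor CD206, a scavenger receptor of resident macrophages (chromosome 2, 14229392 to 14332057). Controls stood at 395 and 129 normalized counts and cKO mice at 136 and 94.6. Control mouse 1 stood apart, and the remaining 3 mice lay together. The log2 fold change was -0.99 ± 0.54 (adjusted p = 0.169), and it was -1.79 without control mouse 2 (adjusted p = 0.0294) and -0.18 without control mouse 1 (adjusted p = 0.701). Relative to *Csf1r*, *Mrc1* stood at 0.643 and 0.355 in controls but at 3.22 and 1.75 in cKO mice. It made up 4.99% and 3.70% of the summed member counts in controls and 24.7% and 12.9% in cKO mice. *Lyve1*, a hyaluronan receptor shared by some macrophages and lymphatic vessels, had a like shape, at 526 and 64.4 normalized counts in controls and 43.2 and 73.0 in cKO mice (adjusted p = 0.182). It was named after its values were seen.

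The promoters of *Itgam* and *Mrc1* are shown for comparison, since the first changed clearly and the second did not pass the test, with capitals as above.
Itgam (chr7:128062390-128062689, plus strand): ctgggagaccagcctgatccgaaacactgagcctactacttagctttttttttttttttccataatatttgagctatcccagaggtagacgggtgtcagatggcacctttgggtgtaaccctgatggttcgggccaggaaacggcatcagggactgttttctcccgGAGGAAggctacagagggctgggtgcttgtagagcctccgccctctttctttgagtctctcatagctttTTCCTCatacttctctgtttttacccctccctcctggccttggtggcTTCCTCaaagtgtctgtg
Mrc1 (chr2:14229164-14229463, plus strand): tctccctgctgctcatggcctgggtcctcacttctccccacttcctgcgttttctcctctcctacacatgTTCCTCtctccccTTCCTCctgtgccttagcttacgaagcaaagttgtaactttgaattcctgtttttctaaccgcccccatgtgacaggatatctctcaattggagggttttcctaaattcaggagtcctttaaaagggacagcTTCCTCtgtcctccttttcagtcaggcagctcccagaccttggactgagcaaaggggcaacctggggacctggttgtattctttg

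RefSeq promoters were matched for 7 of the 10 members, namely *Cd68*, *Lyz2*, *C1qb*, *C1qc*, *Itgam*, *Fcgr3* and *Mrc1*. GAGGAA occurred on either strand in 6 of these 7 genes, all but *Lyz2*, and in 31.3% of the 27025 genes with a promoter of this length. GGAAGT, an overlapping ETS word that shares GGAA with the first, occurred in 5 of the 7 (26.5% of all genes). The joined word GAGGAAGT occurred in *C1qc* (3.69% of all genes). CACGTG, the E-box that clock factors such as BMAL1 bind, was not among the letters of any window of these 7 genes and occurred in 8.09% of all genes. *Mrc1* and *Itgam* each had 3 matches of GAGGAA. These are letter matches and no evidence of binding, and the words were chosen with earlier results of these data known.

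Levels of different genes were compared per kilobase of exon. In the control mice *Lyz2* led with a mean of 1932 normalized counts per kilobase, followed by *C1qb* (393), *C1qa* (322), *Fcgr3* (208), *Cd68* (187), *Itgam* (138), *C1qc* (131), *Csf1r* (84.5), *Mrc1* (41.1) and *Adgre1* (29.6). The ranges of the 2 mice overlapped between neighbours in this order except between *Lyz2* and *C1qb* and between *Csf1r* and *Mrc1*. In the *Bmal1* cKO mice *Lyz2* again led (236 per kilobase), but *Cd68* (19.9), *Itgam* (18.7) and *Mrc1* (18.1) came next with overlapping ranges, and *C1qa* (3.28), *Adgre1* (2.31) and *C1qc* (1.58) were lowest. The place of *C1qa* in the control order rested on control mouse 1 (571 per kilobase). In control mouse 2 it stood at 72.5, below *Fcgr3* (196), *Itgam* (168), *Cd68* (142) and *C1qb* (99.7).

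*Ptprc* encodes CD45, the surface phosphatase of all leukocytes, and stood at 1259 and 745 normalized counts in controls and 315 and 414 in cKO mice (log2 fold change -1.42, adjusted p = 0.00865). On the deposited size factors all members but *Mrc1* had larger log2 fold changes. With correction for GC content *Ptprc* stood at -2.35, close to *Cd68* (-2.43) and *Csf1r* (-2.46). For each 100 counts of *Ptprc* there were 48.7 and 48.6 of *Csf1r* in controls and 13.4 and 13.1 in cKO mice, and 30.5 and 45.6 against 5.88 and 4.58 of *Fcgr3*. Taken relative to *Ptprc*, both *Bmal1* cKO libraries lay below both control libraries for 9 of the 10 members and for 9.2% of all genes tested other than *Ptprc*. *Mrc1* was the exception, with 31.3 and 17.3 against 43.1 and 22.9.

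The control mice differed from each other more than the *Bmal1* cKO mice did in the summed level. Control mouse 1 had the higher value in 9 of 10 members. The ratio of control mouse 1 to control mouse 2 was 7.88 for *C1qa*, 6.90 for *C1qb* and 8.98 for *C1qc*, 3.06 for *Mrc1*, 2.81 for *Lyz2*, 2.60 for *Adgre1*, 1.69 for *Csf1r*, 1.65 for *Cd68*, 1.13 for *Fcgr3* and 0.642 for *Itgam*. On the log2 scale the C1q chains differed between the control mice by 2.77 to 3.14, more than 98.2% to 98.8% of the genes tested, whose median difference was 0.20. Markers of other cells also differed between these mice. B and plasma cell markers summed to 62806 normalized counts in control mouse 1 and 1564 in control mouse 2, fibroblast markers to 14612 and 2710, and endothelial markers to 2754 and 671. Neutrophil markers went the other way, with 9590 and 28326. Their part in the differences between the control mice was not tested.

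**Figure D2:**
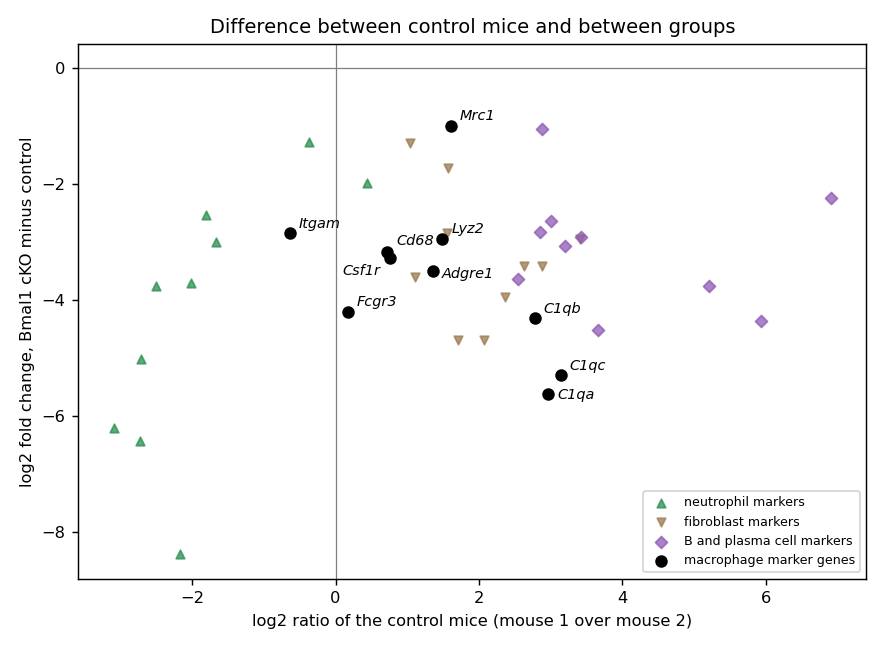
Log2 ratio of control mouse 1 to control mouse 2 (horizontal) and log2 fold change between the groups (vertical) of the 10 macrophage marker genes (black, named) and the tested neutrophil (green), fibroblast (brown) and B and plasma cell (purple) markers, each on log2(normalized count + 1). The C1q chains lie far to the right (2.77 to 3.14), *Itgam* lies left of 0 (-0.64) on the side of most neutrophil markers, and all black points lie below 0.

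**Figure D3:**
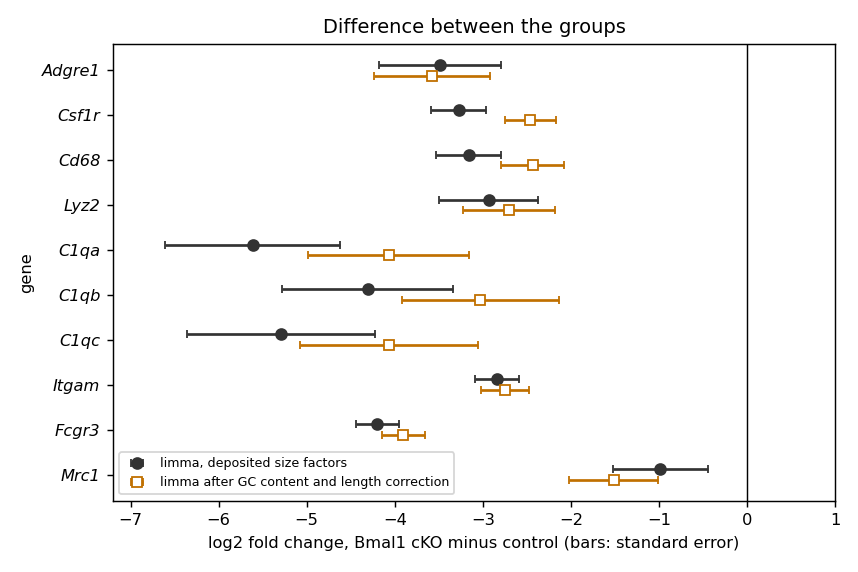
Log2 fold change (*Bmal1* cKO minus control) of the 10 genes with its standard error as a bar, from limma on the deposited size factors (filled) and after correcting for GC content and exon length (open). The corrected values lie nearer to 0 for the C1q chains (-4.07 for *C1qa*), while all 10 remain negative in both.

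The fold changes of this experiment followed the GC content of the genes, with a Spearman's rho of -0.61 across genes, which are not independent replicates. The transcripts of the 10 members had a GC content of 43.4% to 59.5% with a median of 51.1%, against 49.5% over the genes tested. Correcting every library for GC content and exon length left 9 genes, all but *Mrc1*, lower at an adjusted p under 0.05, where 12.1% of all genes were lower. The median of the members moved from -3.38 to -2.89. The C1q chains, with the highest GC content of the list, moved most, to -4.07 for *C1qa*, -3.03 for *C1qb* and -4.06 for *C1qc*. *Mrc1*, with the lowest, moved to -1.52 (adjusted p = 0.0586).

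A wider list of monocyte and macrophage genes was also followed. Of 42 such genes 38 were listed and 37 tested, and 27 of these fell, 1 rose and 9 did not pass the test, with a median log2 fold change of -2.77. Over all genes tested, 27.7% fell and 29% rose, which is the share against which these counts and those of the smaller lists below stand. Without *Bmal1* cKO mouse 2 the number that fell was 16, and it was 17 without *Bmal1* cKO mouse 1 or without control mouse 1. The gene that rose no longer did so without either *Bmal1* cKO mouse. All 5 ligands and partner subunits fell, including *Tyrobp*, the DAP12 adaptor of myeloid receptors (329 and 356 normalized counts against 8.23 and 5.41, log2 fold change -5.48, adjusted p = 5.33e-04). All 3 other Fcγ receptors fell.

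Of the 4 lineage transcription factors 3 fell. *Spi1*, which encodes PU.1, stood at 265 and 226 normalized counts in controls and 12.3 and 14.9 in cKO mice (-4.08, adjusted p = 5.49e-04). *Irf8*, which B cells and other cells also use, did not pass the test (1210 and 930.1 against 981 and 846, adjusted p = 0.280).

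Of 5 genes of monocyte recruitment 3 fell, among them the chemokine receptor *Ccr1* (291 and 488 against 67.9 and 43.3, -2.77, adjusted p = 0.00201). *Ccr2*, the receptor by which monocytes leave the bone marrow, had 261 and 58.4 against 36.0 and 17.6 and missed the threshold (adjusted p = 0.0525, or 0.0192 with correction for GC content). Its ligand *Ccl2* had 366 normalized counts in control mouse 1 and 14.4 in control mouse 2, against 7.20 and 5.41 (adjusted p = 0.0992).

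Of 8 other scavenger and phagocytic receptors tested, 5 fell and 1 rose. With correction for GC content, 4 fell and 1 rose, beside 12.1% and 29.4% of all genes in that fit. *Stab1*, a scavenger receptor of resident macrophages and vessels, had 603 and 136 against 11.3 and 0 (-6.35, adjusted p = 0.0111). *Cd14*, the lipopolysaccharide co-receptor, did not pass the test (1636 and 5241 against 1479 and 1237, adjusted p = 0.120). *Mertk*, a receptor for dying cells, was the gene that rose, from 207 and 278 to 439 and 497 (0.96, adjusted p = 0.00840). Of the 5 effector genes 4 fell. *Chil3*, a chitinase-like protein of monocytes and neutrophils, had 1002 and 2009 against 10.3 and 6.76 (-7.25, adjusted p = 5.33e-04), *Nos2*, the inducible nitric oxide synthase, had 1919 and 2187 against 1325 and 699 (-1.09, adjusted p = 0.0265, or 0.422 with correction for GC content), and *Cybb*, the phagocyte oxidase, had 445 and 223 against 67.9 and 124 (-1.77, adjusted p = 0.0188).

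Of 7 other macrophage markers tested, 4 fell. They included the pore-forming protein *Mpeg1* (963 and 549 against 98.7 and 64.9, -3.17, adjusted p = 0.00123), the lysosomal membrane protein *Laptm5* (1173 and 565 against 51.4 and 73.0, -3.71, adjusted p = 0.00113) and the protease *Ctss*, which epithelial cells also make and which fell by 0.68 on the log2 scale (2564 and 2579 against 1423 and 1804, adjusted p = 0.00869). Across these lists 3 genes, *Cd163*, *Trem2* and *Il10*, had 0 reads in both *Bmal1* cKO libraries, and they are named here after their values were seen.

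Markers of several other cells that lie outside the epithelium were also lower, beside the 27.7% of all genes that were. Neutrophil markers fell in 10 of 10 genes tested, with sums of 9590 and 28326 normalized counts in controls and 3627 and 2907 in cKO mice. The most abundant of them were *Ly6g*, *S100a8* and *S100a9*, of which *Ly6g* changed least (log2 fold change -1.27). T cell markers fell in 6 of 9 (623 and 231 against 53.5 and 94.6). Among B and plasma cell markers 2 of 10 fell, and their sums stood apart mainly through control mouse 1 (62806 and 1564 against 570 and 1026). Endothelial markers fell in 9 of 10 (2754 and 671 against 51.4 and 87.9), fibroblast markers in 8 of 10 (14612 and 2710 against 655 and 685), smooth muscle markers in 7 of 8 (1830 and 1995 against 28.8 and 47.3) and red blood cell markers in 5 of 5 (1348 and 2033 against 19.5 and 17.6). Of the genes of these lists *Ngp*, *Camp*, *Emcn*, *Lmod1* and *Hba-a2* were at 0 in both *Bmal1* cKO libraries, and they are named because of these values. The controls held 185 and 833 reads of *Ngp*, 89 and 16 of *Emcn* and 53 and 109 of *Hba-a2*. *Lmod1* had 36 and 28 control reads, and *Camp*, with 13 and 5, was too low to be tested. Epithelial markers gave 5 lower and 3 higher genes of 14, with sums of 191823 and 252503 against 160257 and 181370. With correction for GC content, 0 were lower and 8 higher, beside 12.1% and 29.4% of all genes in that fit. The part of these other cells, and of the isolation of the cells, in the values of the macrophage marker genes was not tested.

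**Figure D4:**
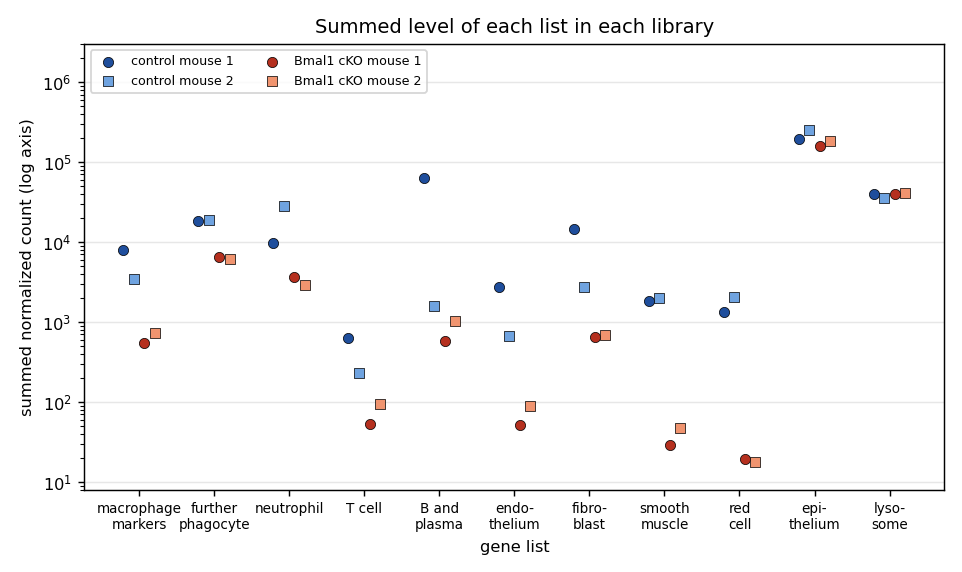
Summed normalized count (log axis) of the genes of each list in the 2 control libraries (blue) and the 2 *Bmal1* cKO libraries (red), 1 point a mouse. The macrophage markers (3477 to 7913 against 550 to 731) and the markers of other non-epithelial cells lie lower in both *Bmal1* cKO mice, the epithelial sums (191823 to 252503 against 160257 to 181370) lie close together, and the lysosomal sums lie slightly higher in cKO mice (40389 and 41106) than in controls (40080 and 35853).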

How the data were processed

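RNA sequencing of colonic epithelial cells from 2 control and 2 *Bmal1* cKO mice was analysed. Per the labels and the methods, the authors aligned reads to GRCm38 with STAR and used DESeq2. Their deposited values are a signal: reads on each gene over the size factor of the library. The counter, its strand setting and the annotation release are not given in the sources used here, and the labels and the methods name different library kits. In each library 100% of the values were whole multiples of 1 read (tolerance 0.02 reads), which gave the reads back. The 6 columns of the authors' own comparison (overall mean, fold change, its error, test statistic and p-values) were not used.

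The log2 of value + 1, on which low genes change less than they do in counts, was fitted for 13983 genes (mean 10 or more) with limma 3.58.1 (trend, two-sided, Benjamini-Hochberg, threshold 0.05). Alternatives were pseudocounts of 0.5 and 5, filters, scaling by library total or epithelial markers, edgeR 4.0.16 and DESeq2 1.42.0 on recovered reads, a loess correction (span 0.3) for GC content and exon length from GENCODE M21, a block for mouse number and leaving out each mouse. The fit was tested on simulated data. Members and lists were chosen with earlier results of these data known. Named were all members, all partners and Fc receptors, the 3 most abundant genes of each further list, *Lyz1*, *Ptprc* and the 5 genes closest in profile. A gene that this rule names is not reported here. Exact intervals (95%) cover counting error only, since reads were not counted by molecule.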

Additional observations from a re-analysis of the deposited data

How the results depend on the processing

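The number of macrophage marker genes that fell was 9 under each of the other pseudocounts, filters and scalings, under edgeR and DESeq2 on the recovered reads and with values corrected for GC content and exon length. The mouse numbers are not known to mark pairs (correlation of same-numbered deviations -0.09), and with a replicate block 10 genes fell. Leaving out each mouse gave 4 to 10, the lowest without *Bmal1* cKO mouse 1, when *Adgre1*, *Lyz2* and the C1q chains missed the threshold (adjusted p from limma between 0.0584 and 0.119). In such fits the lone mouse of a group is assumed to vary like the others, and a sample fewer enters the test. The number without *Bmal1* cKO mouse 2 was 6 and without control mouse 1 it was 7. No alternative gave a member that rose or a positive log2 fold change for any member, and their median lay between -3.92 and -2.89. The further monocyte and macrophage genes that fell numbered 16 to 28 with a mouse left out and 21 to 33 otherwise, and 0 to 1 rose (0 without either *Bmal1* cKO mouse). The 3 lowest of these counts came without *Bmal1* cKO mouse 2 (16), *Bmal1* cKO mouse 1 (17) and control mouse 1 (17). The 5 to 24 pooled reads left in the *Bmal1* cKO libraries limit the size of the differences in *C1qa*, *C1qb*, *C1qc* and *Adgre1*.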

Other observations

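Dendritic cell markers were too low for most tests. Of 8 genes 5 were listed and 3 tested, and *Flt3*, the receptor of a growth factor of dendritic cells, fell (53.2 and 16.9 normalized counts in controls against 5.14 and 0 in cKO mice, log2 fold change -3.65, adjusted p = 0.0432 from limma, or 0.0651 with correction for GC content). *Ccr7*, which guides migrating dendritic cells, had 117 and 9.32 against 2.06 and 5.41 (adjusted p = 0.0947), and *Zbtb46*, a factor of classical dendritic cells, had 46.5 and 14.4 against 7.20 and 0 (adjusted p = 0.0756).

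The genes whose log2 profile over the 4 libraries lay nearest to the mean profile of the macrophage marker genes, by Euclidean distance among 13973 genes, were *Plekho1* (distance 0.08), *Arl4c* (0.10), *Olfm1* (0.11), *Enah* (0.14) and *S100a4* (0.18). *Plekho1* stood at 195 and 70.3 normalized counts in controls against 8.23 and 9.46, and *S100a4*, a calcium-binding protein of leukocytes and fibroblasts, had 86.2 and 28.0 against 3.09 and 4.06. *Arl4c* had 128 and 47.4 against 5.14 and 6.76. With 4 libraries in 2 groups, a likeness of this kind describes these libraries and says nothing of shared control.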
